A study of Mus musculus with 36 samples.

Results

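Methylation of 9 imprinted genes on mouse chromosomes 2, 6, 10, 11, 15, 17 and 18 was examined in liver: Gnas, Peg10, Sgce, Mest, Plagl1, Grb10, Slc38a4, Igf2r and Impact. They were chosen by name, out of 34653 annotated autosomal genes, as genes with a maternally methylated control region. Each was taken from 10 kb before to 10 kb past the annotated gene. Peg10 and Sgce are neighbours and were treated as 1 locus, which gave 8 loci. The loci held 8452 of the 18887127 autosomal CpGs of the table. Cut into fixed windows of 500 bp, they gave 669 of the 1456902 windows that had 5 CpGs or more and, in each animal, 30 reads or more.

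An imprinted gene is transcribed mainly from the copy inherited from 1 parent. At most of these genes a CpG-rich stretch receives methylation in the oocyte, keeps it on the maternal copy through early development and lacks it on the paternal copy, so that a tissue with both copies reads near 50%. ZFP57, a zinc-finger protein, binds the methylated hexamer TGCCGC and helps to keep such marks. The Nesp promoter of Gnas and the promoter of Igf2r are exceptions in the set, since in textbook accounts their methylated copy is the paternal one. The reads analysed here were not divided by allele, so a value near 50% does not say which copy was methylated.

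Whole-genome bisulfite sequencing, which reads unmethylated cytosines as thymine, had been done on liver DNA of 24 mice. There were 3 males and 3 females each of C57BL/6N (B6), C3H/HeN (C3), B6C3F1 (B6 dam and C3 sire) and C3B6F1 (C3 dam and B6 sire), with no engineered allele and no treatment. All 12 B6 and C3 animals were parents, mated at week 10 and killed at week 20, the same week of age as the F1 animals. The dams had borne and nursed litters, weaned at week 16, whereas the F1 daughters were virgin. Each cross was represented by 3 families of sire, dam, son and daughter, so the groups share families. The labels do not say which animals form a family. No family term was fitted, and the tests treat animals as unrelated. Counts on autosomal CpGs ranged from 365740739 to 619888157 per animal, or 19.4 to 32.8 reads per CpG. No pair of animals had identical columns.

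The 200 bases with the most CpGs, clear of annotated UTRs, are shown from the longest near-50% region of 5 loci, because the values rest on regions of this kind. They are the plus strand of mm9 (assembly NCBIM37), intronic in the GENCODE annotation and without a listed strain variant, and capitals mark the CpGs counted in the table. The Grb10 stretch, chr11:11926329-11926528, held 41 CpGs in short repeated units. The Slc38a4 stretch, chr15:96884945-96885144, held 21 CpGs and repeats a unit, and the Peg10/Sgce stretch, chr6:4698213-4698412, held 24. The Plagl1 stretch, chr10:12810839-12811038, held 19 CpGs and 3 copies of TGCCGC counted on both strands. The stretch near the start of Airn inside Igf2r, chr17:12934591-12934790, held 21 CpGs and 2 copies.
Grb10: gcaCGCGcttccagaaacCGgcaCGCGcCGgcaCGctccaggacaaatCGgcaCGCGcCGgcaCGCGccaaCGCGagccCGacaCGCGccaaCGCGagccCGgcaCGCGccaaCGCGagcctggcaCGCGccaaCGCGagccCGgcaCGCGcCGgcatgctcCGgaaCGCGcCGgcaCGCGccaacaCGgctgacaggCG
Slc38a4: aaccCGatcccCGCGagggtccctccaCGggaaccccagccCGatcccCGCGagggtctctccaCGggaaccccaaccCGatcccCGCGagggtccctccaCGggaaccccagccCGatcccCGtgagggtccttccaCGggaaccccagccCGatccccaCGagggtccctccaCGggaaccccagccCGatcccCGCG
Peg10/Sgce: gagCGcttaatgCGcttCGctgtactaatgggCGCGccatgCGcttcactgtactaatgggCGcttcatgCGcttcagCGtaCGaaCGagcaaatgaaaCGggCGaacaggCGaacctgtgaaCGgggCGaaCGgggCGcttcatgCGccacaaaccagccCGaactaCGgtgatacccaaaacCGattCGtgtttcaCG
Plagl1: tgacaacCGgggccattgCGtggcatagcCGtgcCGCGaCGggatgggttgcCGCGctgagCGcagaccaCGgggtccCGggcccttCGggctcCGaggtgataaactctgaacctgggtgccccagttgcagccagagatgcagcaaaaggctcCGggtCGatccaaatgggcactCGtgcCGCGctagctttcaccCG
Igf2r/Airn: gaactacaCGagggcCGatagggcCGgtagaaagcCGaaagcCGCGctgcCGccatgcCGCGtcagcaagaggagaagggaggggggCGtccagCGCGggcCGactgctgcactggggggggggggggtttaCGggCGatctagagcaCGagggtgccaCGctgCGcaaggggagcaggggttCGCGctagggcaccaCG

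In the Grb10 stretch the mean weighted methylation (methylated reads as a percent of all reads) was 55.5% ± 8.97 (SD, n = 6) for B6 and 58.1% ± 8.87 for C3 parents, and 60.2% ± 6.57 for B6C3F1 and 61.8% ± 7.37 for C3B6F1 offspring. The Slc38a4 stretch lay lower, at 47.5% ± 9, 40.8% ± 14.5, 48% ± 7.08 and 41.2% ± 5.08 in the same order. The Plagl1 stretch gave 46.5% ± 9.23, 44.3% ± 3.67, 48% ± 8.34 and 48.7% ± 10.1. The Peg10/Sgce stretch gave 51.75% ± 5.8, 53% ± 8.7, 51.5% ± 6.14 and 55.4% ± 7.59. Animals were more spread in the Airn stretch inside Igf2r, at 56.9% ± 14.3, 58.1% ± 15, 52.45% ± 18.5 and 59.4% ± 25.4. In every stretch the ranges of mean ± SD of the groups overlapped.

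All 8 loci held windows near 50%, defined as a group mean from 35 to 65% in both parental strains and both crosses. There were 112 such windows among the 669 (16.7%), against 5.75% of all autosomal windows. Among dense windows, those with at least 20 CpGs, 41 of 55 were near 50% (74.5%), against 1.98% of dense autosomal windows. Gnas held 32 of its 92 windows near 50%, Slc38a4 22 of 128, Peg10/Sgce 13 of 113, Grb10 12 of 85, Mest 11 of 48, Plagl1 9 of 55, Igf2r 7 of 115 and Impact 6 of 33. The loci were chosen as imprinted, so these shares describe them and test nothing.

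Windows near 50% that lay at most 1000 bp apart were joined, and runs of at least 3 windows are described. There were 12 runs, holding 77 windows. Of these, 11 covered an annotated start site.

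Gnas, which encodes the stimulatory G protein alpha subunit, had 3 runs that line up with its alternative promoters. The first, chr2:174108501-174115000, spans the Nesp start and held 248 CpGs with a mean of 48.1% over the 24 animals. The second, chr2:174119501-174126500, spans the Nespas and Gnasxl starts and was the longest run of the 12, with 14 windows and 350 CpGs. Its values were 47.7%, 49.5% and 51.5% for B6 (lowest, median and highest animal) and 47.6%, 52.0% and 53.4% for C3, with 48.1%, 49.8% and 51.1% for B6C3F1 and 48.7%, 50.9% and 53.8% for C3B6F1. The 4 groups overlapped throughout, and every animal lay within 4 points of 50%. The third, chr2:174152501-174154500, at exon 1A, held 153 CpGs at 48.5%. The next window, chr2:174154501-174155000, was at 32.4%. Beyond it, the 4 windows from chr2:174155001 to chr2:174157000, over the start of the main Gnas transcript, were near 0, with means of 0.295 to 0.376%.

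Peg10, a retrotransposon-derived gene, and Sgce, which encodes epsilon-sarcoglycan, start head to head within 1 run, chr6:4695001-4699500. It held 194 CpGs at 51.0%, and single animals ranged from 46.1 to 54.5%. The Mest run, chr6:30685001-30690000, at the start of a gene for a protein of the hydrolase fold, held 185 CpGs at 51.1%. Its group medians were 49.5% for B6 and 52.1% for C3, with 48% for B6C3F1 and 53.2% for C3B6F1, and the groups overlapped.

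The Plagl1 run, chr10:12809501-12812000, lies at a start of this zinc-finger transcription factor gene and held 122 CpGs at 53.5%. Grb10, an adaptor that restrains insulin and growth factor signalling, had its run at chr11:11925001-11927000, a start site inside the gene, with 163 CpGs at 53.3%. Grb10 animals ranged from 46.6 to 57.0% for B6 and 49.3 to 60.0% for C3, with 49.4 to 59.1% for B6C3F1 and 47.6 to 55.1% for C3B6F1. The 3 dense windows over the other Grb10 start site, chr11:11936501-11938000, were at 2.56 to 3.78%, so the run and the unmethylated promoter belong to the same gene.

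Igf2r, the receptor that clears IGF2, had 2 runs. The first, chr17:12934001-12935500, is the start of Airn, a non-coding RNA transcribed against Igf2r, and held 92 CpGs at 48.8%. Animals ranged from 44.5 to 52.8% for B6 and 37.6 to 56.6% for C3, with 45.1 to 56.6% for B6C3F1 and 35.7 to 52.0% for C3B6F1. The second, chr17:12961501-12963000, is the promoter of Igf2r and held 117 CpGs at 41.8%. Its group means were 42.2% ± 7.46 (SD, n = 6) for B6 and 38.6% ± 2.39 for C3, with 43.0% ± 4.64 for B6C3F1 and 43.6% ± 5.95 for C3B6F1. It was the lowest of the 11 runs at start sites.

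Slc38a4, a transporter of neutral amino acids that is active in liver, had a run at its start, chr15:96884001-96886500, with 104 CpGs at 50.6%. Animals ranged from 48.3 to 57.2% for B6 and 44.4 to 56.0% for C3, with 45.5 to 54.1% for B6C3F1 and 47.2 to 52.7% for C3B6F1. The second Slc38a4 run, chr15:96851001-96853000, was unlike all others. It lay in an intron, held 21 CpGs at 40.9%, carried 3 listed strain variants and no TGCCGC, and only 57.1% of its CpGs were themselves between 35 and 65%. Impact, a regulator of the GCN2 kinase, had a run at its start, chr18:13130501-13133500, with 109 CpGs at 47.2%.

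**Figure D1:**
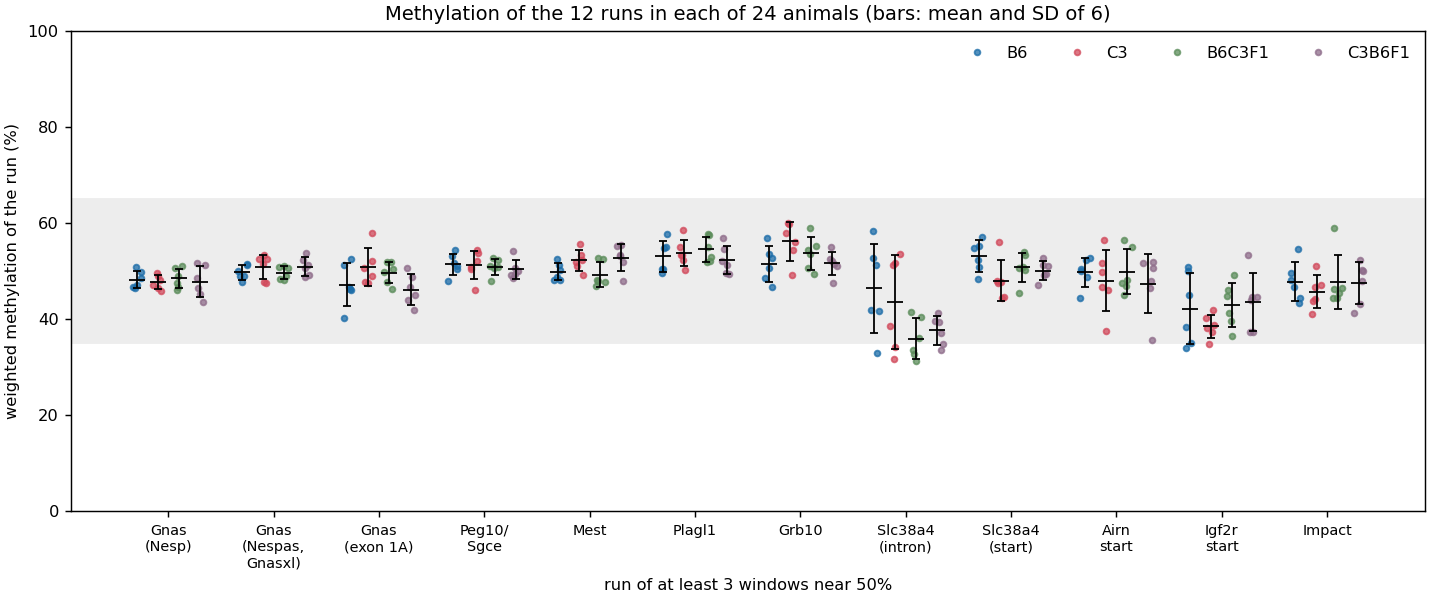
Weighted methylation (percent, y axis) of each of the 12 runs in each of the 24 animals, colored by strain or cross, with the mean and SD of 6 animals as bars and the band of 35 to 65% shaded. Groups overlap in every run, and the spread is widest in the intronic Slc38a4 run, where animals range from 31.3 to 58.4%.

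In the other 11 runs 88.0 to 100% of single CpGs lay between 35 and 65%. From the end of a run outward, the first bin of 100 bp at or above 75% or at or below 25% began 0 to 800 bp away over the 24 edges, with a median of 200 bp. At 21 edges this bin was at or above 75%. At the other 3 it was low: past the upper edge of the exon 1A run of Gnas, at 9.98%, and past the lower edges of the Airn start, at 20.9%, and of the intronic Slc38a4 run, at 22.0%.

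**Figure D2:**
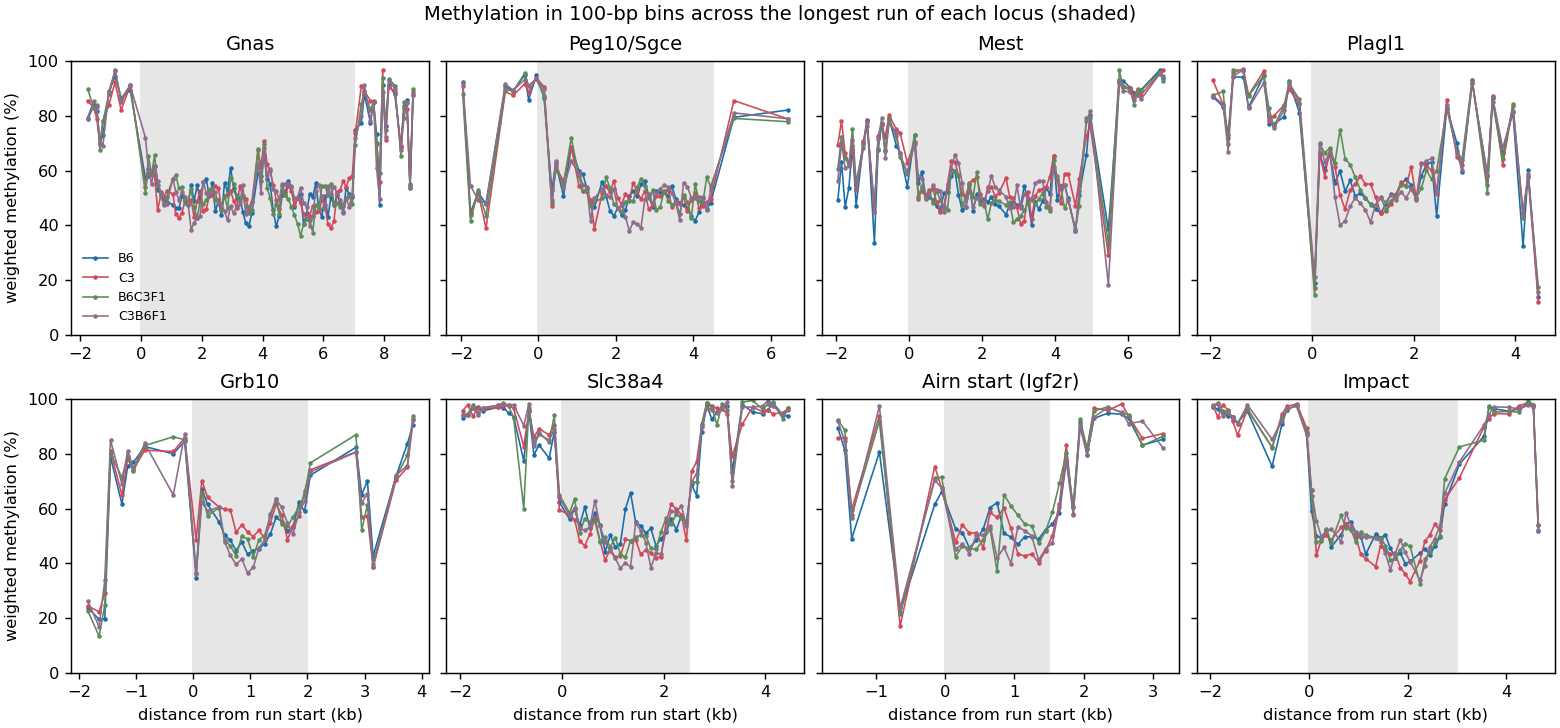
Weighted methylation (percent, y axis) in bins of 100 bp across the longest run of each locus (shaded), by distance from the start of the run in kb, with 1 line for each strain or cross over its 6 animals. Inside each run the 4 lines lie near 50%, which the choice of windows requires, and most flanks lie above 75%.

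The windows of the runs were flat from CpG to CpG. Over the 77 windows the median share of CpGs between 35 and 65% was 100%, and the median SD between CpGs of a window was 3.54 points. Over the 83710 near-50% windows elsewhere on the autosomes, which were not selected for lying in runs, these were 33.3% and 23.0 points. The 35 near-50% windows of the loci outside runs were close to that, at 37.5% and 22.15 points. Restricted to dense windows, the values were 100% and 2.60 points in 41 windows of the runs against 44% and 19.8 points in 848 windows elsewhere.

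The SD between animals was larger in run windows than in other windows near 50%. The median SD between animals of a group was 6.24 points in run windows, where counting error alone gives a median of 2.32 points, and 4.64 points elsewhere, where it gives 3.61. The ratio of the observed to the counting SD had a median of 2.60 in run windows, 1.54 in the 35 other near-50% windows of the loci and 1.29 elsewhere. In dense windows the ratios were 3.14 and 2.25. The counting SD takes every CpG call as independent, although CpGs on the same read are sampled together. Run windows had a median of 20 CpGs against 7 elsewhere, and 33 against 23 in dense windows. The ratios are therefore not on equal terms, and the part of read sampling in the larger SD was not tested. Whole runs were mostly more even, leaving aside the intronic Slc38a4 run with group SDs of up to 9.84 points. Group SDs of the others went from 1.32 points, in the long Gnas run of B6C3F1, to 7.46 points, in the Igf2r promoter run of B6. The Airn run of C3, at 6.38 points, also lay above the median of run windows.

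TGCCGC, counted on both strands, was present in 11 of the 12 runs, with 14 copies in the long Gnas run, 12 in Mest, 8 at the Airn start, 6 in Plagl1, 5 in Impact and 1 to 4 in the rest. Of the 77 run windows 39.0% held the hexamer, and of the 35 other near-50% windows of the loci 0%. In dense windows the share was 63.4% in the runs, 25% in near-50% windows elsewhere and 32.4% over all dense autosomal windows, against 7.01% of all windows of the same length. The hexamer contains a CpG, and run windows had more CpGs. Their median was 20 against 7 in the 35 windows, and 33 against 23 in dense near-50% windows elsewhere. These shares are therefore not on equal terms. Direct repeats were looked for as the best match of a dense window with itself at a shift of 8 to 100 bases. In the runs, 2 of the 41 dense windows matched at 50% or more of their bases (4.88%), against 0.502% of all dense windows. They were chr6:4698001-4698500 in Peg10/Sgce, at 60.7% with a shift of 29 bases, and chr15:96885001-96885500 in Slc38a4, at 60.3% with a shift of 37 bases. The Peg10/Sgce stretch printed above lies inside the first, and the Slc38a4 stretch overlaps the second in part.

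The reciprocal crosses address whether methylation depended on which strain was the mother. No window of the 8 loci differed between B6C3F1 and C3B6F1 by the rule for calls (a difference of 10 points or more with an adjusted p below 0.05 by limma), a rule met by 0.00178% of all windows. The count was also 0 with a quasi-binomial model. At an unadjusted p below 0.05 there were 38 windows (5.68%), against 6.69% of all windows, and the lowest adjusted p in the loci was 0.51 (limma). The largest difference was in the Plagl1 run, at chr10:12810001-12810500, with 60.1% ± 4.18 (SD, n = 6) in B6C3F1 and 48.5% ± 7.98 in C3B6F1, at a limma adjusted p of 0.59. The lowest was in an intron of Slc38a4, at chr15:96836501-96837000, with 37.1% ± 9.82 and 47.1% ± 13.1, at a limma adjusted p of 0.70. C3 depth at that window was 0.566 of B6 depth.

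Averaged over the near-50% windows of a locus, chosen on the parents, the reciprocal difference lay between -0.79 and 1.66 points in 7 loci. In Mest it was -3.42 points, with 49.9% ± 2.54 (SD, n = 6) in B6C3F1 and 53.3% ± 2.60 in C3B6F1. The exact two-sided permutation test over 6 against 6 animals gave p = 0.0498 for Mest and 0.40 after adjustment over the 8 loci, and the groups overlapped. No locus passed.

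The reads were aligned to mm9, a C57BL/6 genome, and depth was therefore compared between the strains. In the 12 runs the C3 to B6 ratio of depth was 0.962 to 1.03, and they held 5 listed strain variants in all. Over the 120 windows near 50% in the parents, the reciprocal difference and the log2 ratio of C3 to B6 depth had a Pearson correlation of 0.030 and a Spearman correlation of -0.047, with the same animals behind every window. In 60 of the 120 the difference was positive, and in 100 it was within 5 points.

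**Figure D3:**
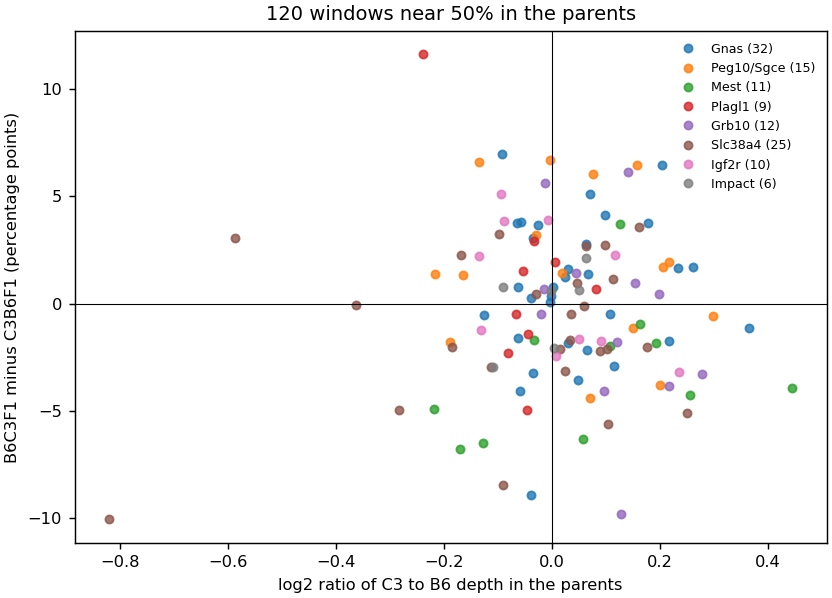
Difference between B6C3F1 and C3B6F1 in percentage points (y axis) against the log2 ratio of C3 to B6 depth in the parents (x axis) for the 120 windows near 50% in the parents, colored by locus with the number of windows in brackets. Points scatter around 0 on both axes, and the few windows with a low ratio belong to Slc38a4.

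Between the B6 and C3 parents, 13 of the 669 windows differed by the same rule (1.94%), against 2.39% of all windows. Of these, 7 were higher in B6 (1.06% of all windows) and 6 lower (1.33%), whereas with no minimum difference 12 were higher and 23 lower. Runs held 77 of the 669 windows and 0 of these calls, with a lowest limma adjusted p of 0.051. Run windows had been chosen for intermediate means in these same B6 and C3 animals, which limits how far the strains can differ there. The count of 0 therefore cannot show whether runs are less prone to strain differences than other windows. The calls lay in Slc38a4 (7), Grb10 (4) and Mest (2). The largest was an exonic window of Grb10 with 5 CpGs and 4 listed variants, chr11:11837001-11837500. It ranged from 82.2 to 87.9% in B6 and 49.4 to 61.2% in C3, while B6C3F1 was at 62.4 to 75% and C3B6F1 at 64.2 to 72.6%, with a B6 minus C3 difference of 30.5 points and a limma adjusted p of 7.7e-13. Every B6 animal lay above every C3 animal, with the F1 animals between them.

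A second Grb10 window, at the end of the gene, chr11:11830501-11831000, carried no listed variant. Its mean was 49.5% ± 4.70 (SD, n = 6) in B6 and 24.3% ± 3.49 in C3, with a limma adjusted p of 2.2e-08. In Slc38a4 the exonic window chr15:96847001-96847500 had 44.5% ± 6.97 in B6 and 73.0% ± 7.84 in C3, with a limma adjusted p of 8.2e-09. Both crosses lay near the B6 value there, at 46.4% and 49.9%. This window held 2 listed variants and had a C3 to B6 depth ratio of 0.826. It was also called higher in dams (64.3%) than in sires (53.3%) and daughters (48.9%), so the parental means include that difference. In Mest the windows chr6:30682501-30683000 and chr6:30683001-30683500, before the run, were lower in B6 by 19.9 and 13 points. The first had 56.9% ± 5.06 in B6 and 76.8% ± 8.02 in C3, with a limma adjusted p of 8e-06. Averaged over near-50% windows chosen on the F1 animals, no locus differed between the strains. Mest, at -2.32 points, came nearest, with an exact two-sided permutation p of 0.052 and 0.42 after adjustment over the 8 loci.

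Sires and dams differed in 17 of the 669 windows (2.54%), against 0.573% of all windows, and all 17 were higher in dams, a direction met by 0.333% of all windows. A single window lay in Gnas, the intronic window chr2:174157501-174158000, with 34.2% ± 5.81 (SD, n = 6) in sires and 47.7% ± 5.26 in dams (limma adjusted p = 0.0053). The other 16 lay in Slc38a4, 13 in introns and 3 over exons, from 6.6 to 52.6 kb past its start. All 16 were lower in sires within B6 and within C3. They had been called on the average of both within-strain differences in the same animals, so the shared direction is not a separate test. The smallest sire minus dam difference was -3.97 points, within B6, in the window that begins at chr15:96853001. In 8 of the 17 (47.1%), 7 of them in Slc38a4, every dam lay above every sire, against 58.7% of all windows called in that direction. Called or not, this held in 15 of the 669 windows (2.24%), against 0.361% of all windows. Of the 16, 5 lost the call when 1 animal or another was left out. No window of the loci had a sire and dam difference that itself differed between B6 and C3 by limma, against 0.00178% of all windows. At an unadjusted p below 0.05 there were 35 (5.23%), against 5.42% of all windows, and the quasi-binomial model gave 0 calls.

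The largest was chr15:96855501-96856000, an intronic window with 9 CpGs and no listed variant, 30.6 kb past the start. Sires were at 43.5% (lowest), 53.5% (median) and 62.0% (highest), dams at 78.4%, 84.5% and 89.0%, sons at 42.7%, 50.8% and 56.1%, and virgin daughters at 52.3%, 59.0% and 64.0%. Every dam lay above every sire, son and daughter, while the other groups overlapped. Dams exceeded sires by 30.4 points (limma adjusted p = 3.8e-11) and daughters by 25.2 points (limma adjusted p = 6.7e-09). It was also the 1 window of the 669 called for a dam and daughter difference that departed from that of sires and sons, by 22.4 points (limma adjusted p = 0.00013), against 0.0414% of all windows. In chr15:96852001-96852500 the departure was larger, 26.1 points, and did not pass (limma adjusted p = 0.054).

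Dams and daughters differed in 8 windows (1.20%), against 0.136% of all windows, 7 of them in Slc38a4 and higher in dams. Over all autosomes the direction was mostly the other, with 0.0165% of windows higher in dams and 0.12% lower. The eighth was an Igf2r intron window, chr17:12950001-12950500, with 25.2% ± 4.49 (SD, n = 6) in dams and 37.2% ± 2.14 in daughters (limma adjusted p = 0.013, and 0.064 without B6 female replicate 2). Of the 7 windows in Slc38a4, 3 lost the call when 1 animal or another was left out. Of the same 7, 6 were also among those higher in dams than sires, a pair of comparisons that share the dams. Dams were inbred and daughters F1 hybrids, so genotype differed between them too. The windows chr15:96847001-96847500, chr15:96854001-96854500 and chr15:96858001-96858500 were also called between B6 and C3. In chr15:96852501-96853000, inside the intronic run, dams ranged from 64.4 to 79.9%, sires from 44.7 to 51.6%, daughters from 35.3 to 53.4% and sons from 25.5 to 49.1%. Dams stood above daughters there by 24 points (limma adjusted p = 4.2e-05). The neighbouring window chr15:96852001-96852500 gave 54.3% ± 5.72 in dams, 33.1% ± 5.61 in sires, 38.3% ± 7.67 in sons and 33.5% ± 7.52 in daughters.

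Sons and daughters differed in 3 windows (0.448%), against 0.255% of all windows (0.225% in the direction of daughters). All 3 lay in Slc38a4, were higher in daughters and were also higher in dams than sires. In chr15:96879501-96880000, 6.6 kb past the start, sires ranged from 68.6 to 77.0%, dams from 82.6 to 92.1%, sons from 65.2 to 74.1% and daughters from 78.1 to 84.9%. Females of both generations lay above all males of their own generation, by 15.8 points in parents (limma adjusted p = 7.6e-07) and 10.4 points in F1 animals (limma adjusted p = 0.015). The F1 difference at this window fell below 10 points when any of 4 animals was left out, and the limma adjusted p rose to between 0.064 and 0.075. In chr15:96867501-96868000 the F1 difference was 18.2 points (limma adjusted p = 0.0023). In chr15:96834001-96834500 it was 12.0 points (limma adjusted p = 0.0486), and this call was lost when any of 17 of the 24 animals was left out (adjusted p up to 0.198).

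**Figure D4:**
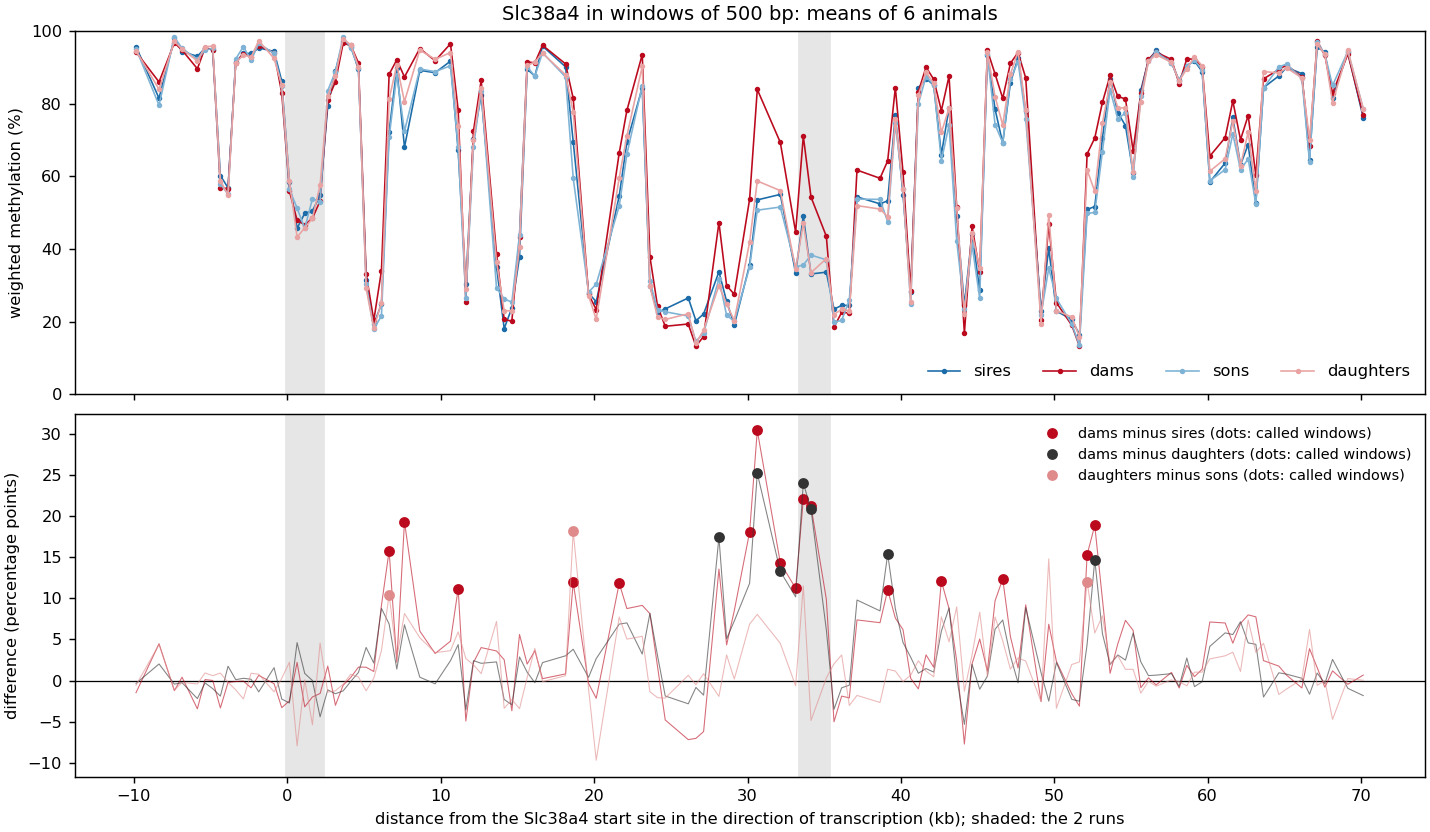
Upper panel: mean weighted methylation (percent) of sires, dams, sons and daughters in 500-bp windows of Slc38a4, by distance from its start site in kb in the direction of transcription, with both runs shaded. Lower panel: differences in percentage points, with dots at windows called by limma, which lie from 6.6 kb past the start onward. The largest difference is 30.4 points, 30.6 kb past the start, and the run at the start holds no called window.

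**Figure D5:**
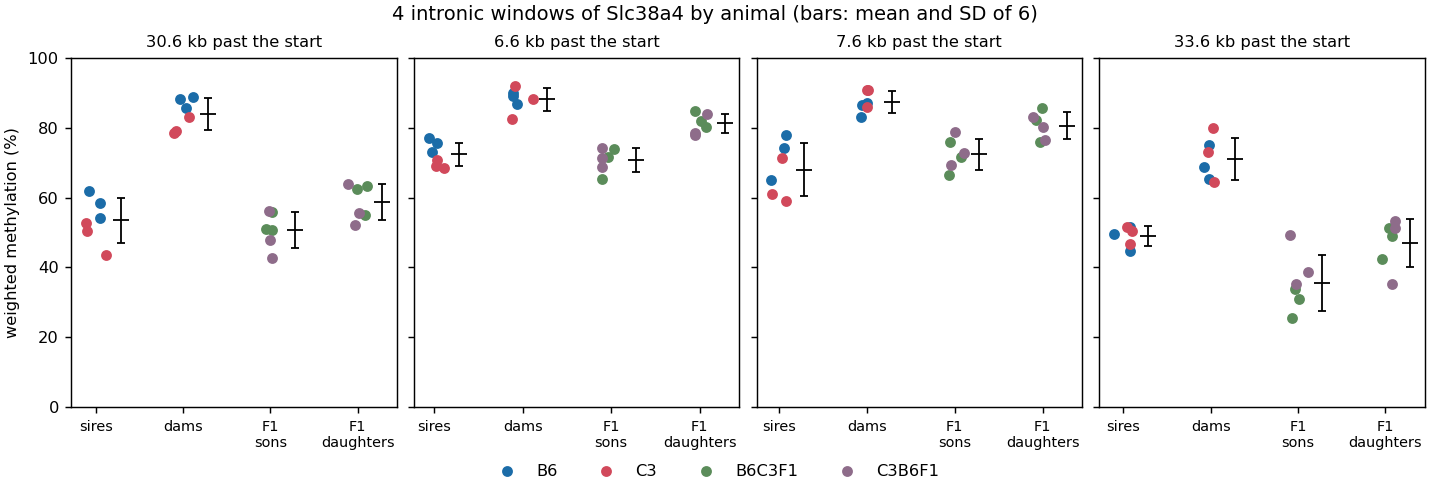
Weighted methylation (percent, y axis) of 4 intronic Slc38a4 windows in the single animals, colored by strain or cross, with the mean and SD of 6 as bars. The 4 were picked for the lowest limma adjusted p between sires and dams at the locus, a choice that favours sires and dams without overlap. Dams lie above sires without overlap in all 4, and in those 30.6 and 33.6 kb past the start also above every daughter. Of the 17 windows of all loci called between sires and dams, every dam lay above every sire in 8 (47.1%). Over all windows called in that direction the share was 58.7%.

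The run at the Slc38a4 start held none of these windows. Its mean was 51.3% ± 4.16 (SD, n = 6) in sires, 49.9% ± 5.07 in dams, 51.6% ± 2.46 in sons and 49.4% ± 2.05 in daughters. The intronic run had 36.9% ± 4.51, 53.2% ± 2.72, 35.4% ± 2.89 and 38.2% ± 3.97, and every dam lay above every other animal there. Averaged over all near-50% windows of Slc38a4 chosen on the F1 animals, sires had 51.8% ± 1.13 and dams 57.8% ± 1.29, a difference of -6.07 points. The exact two-sided permutation test gave p = 0.00216, the smallest it can give with 6 against 6, and 0.0173 after adjustment over the 8 loci. Restricted to runs formed among those windows (11 windows), the difference was -3.84 points with an adjusted exact p of 0.069. Dams exceeded daughters by 5.30 points over windows chosen on the males, with an adjusted exact p of 0.0173. Runs formed among these windows held 5 windows, without the intronic run. Over them dams exceeded daughters by 0.53 points, with an adjusted exact p of 0.89. No other locus passed in either comparison, and none passed between sons and daughters.

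Start sites of hepatocyte genes had a median methylation of 20.5% over 8 genes, and those of 6 leukocyte genes 85.4%, of 3 muscle genes 84.0% and of 4 endothelial and stellate genes 59.4%. Genes of a list differed: among hepatocyte genes Apoh was at 0.293% and the rest at 15.2 to 27.1%, and Lrat, a stellate cell gene, was at 2.16% against 59.1 to 74.4% for Stab2, Cdh5 and Tek. As an unweighted mean over its genes, the hepatocyte list was at 16.7% in dams (14.4 to 19.6%), 19.7% in sires (15.0 to 23.6%) and 18.8% in daughters (12.6 to 22.9%). The same mean of the leukocyte list was at 83.0% (81.6 to 85.4%), 84.3% (82.2 to 86.4%) and 83.0% (81.4 to 83.9%), of the endothelial and stellate list at 49.3%, 48.8% and 48.2%, and of the muscle list at 81.0%, 82.1% and 80.8% in the same order. These groups overlapped in every list, and the part of cell composition in the Slc38a4 differences was not tested.

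Other genes were read by the same rule. In 23 listed genes within 1 Mb of a locus, 90 of 1740 windows were near 50% (5.17%), close to the 5.75% of all windows, and 1 gene, the transporter Slc22a3 next to Igf2r, had a run of at least 3. The list also held Gnal, which is not near any of the loci, and with it the count was 98 of 1885 windows (5.20%). Of the 25 other imprinted genes listed, 24 were found, and 131 of their 1121 windows were near 50% (11.7%), and 8 of these genes had a run of at least 3: H19, Meg3, Dlk1, Snrpn, Kcnq1, Peg3, Zrsr1 and Commd1. Zrsr1 lies inside Commd1, so these share 1 run. The longest of these runs was in Peg3, a zinc-finger gene, with 11 windows against 14 in the long Gnas run.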

How the data were processed

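Methylation had been read by whole-genome bisulfite sequencing of liver DNA of 24 mice. The deposited counts are methylated and unmethylated reads per CpG and animal, both strands together, without normalization. Per the labels the authors used CASAVA 1.8.2, Bismark 0.7.8, Bowtie 0.12.8 and Picard 1.110 with mm9. They removed duplicates, kept CpGs present in mm9 and both strains and pooled no animals. All 48 count columns were used and 0 others. The deposited list of strain variants served to count variants in windows. The FOXA1 ChIP samples and chromosome X were not analysed here.

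Genes came from GENCODE on NCBIM37, the same assembly as mm9, and every listed position was a CG there. Coordinates count from 1. Counts were summed in fixed windows of 500 bp, kept where each animal had 30 reads or more over 5 CpGs or more. Limma 3.58.1 (R 4.3.3, trended and robust) was fitted over all 1456902 windows on the log2 of methylated over unmethylated reads, each plus 1, with 1 mean for each of the 8 groups. Calls needed a Benjamini-Hochberg adjusted p below 0.05 and at least 10 points. Locus means were compared by exact two-sided permutation tests in animals not used to choose the windows (SciPy 1.17.1), adjusted over 8 loci. Counting error takes each CpG call as an independent read, so it is a lower limit. The limma fit was also run on simulated windows without the 10-point minimum, and no result here rests on it.

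Named were all 9 members, the longest run of each locus, the windows with the largest and smallest reciprocal difference, and called windows, at most 5 a locus by size of difference. Other windows and runs were named after their values were seen. Repeats within windows and the comparison of both generations' differences were added after the data were seen. The members and lists were chosen with earlier results of these data known. Same-numbered animals had a mean correlation of deviations of 0.0056 (highest 0.065), and replicate numbers were not taken to pair animals. The mean includes groups that cannot share a family, so it cannot exclude numbering by family. For sons and daughters of B6C3F1, same numbers gave 0.0093 to 0.012 and different numbers -0.0094 to -0.0012. For C3B6F1 these were 0.018 to 0.065 and -0.035 to 0.013. Labels name single animals as replicates. Alternatives were the band, CpG and read minimums, pseudocount, scale, model, minimum difference, tile offset, distance from variants, runs only, replicate block and leaving out each animal.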

Additional observations from a re-analysis of the deposited data

Results flagged for a closer look

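At 1 window the difference between dams and daughters was not that between sires and sons. In the Slc38a4 window chr15:96855501-96856000 the first exceeded the second by 22.4 points (limma adjusted p = 0.00013), a comparison added after the data were seen. It was 1 of 669 windows of the loci, against 0.0414% of all windows.

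In 3 of 48 sets of 6 animals, 12 runs in 4 strains or crosses, 1 animal lay far from the other 5 by Dixon's criterion, which chance meets in about 1 of 20 sets. In the run at the Slc38a4 start, C3 female replicate 1 was at 56.0% and the other C3 animals at 44.4 to 48%. At the Airn start, C3B6F1 female replicate 1 was at 35.7% and the others at 46.5 to 52.0%. In the Impact run, B6C3F1 male replicate 3 was at 59.0% and the others at 44.4 to 46.5%. Without that Impact animal the reciprocal difference of the locus was -2.14 points in place of 0.12.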

How the results depend on the processing

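The 0 windows called between the reciprocal crosses, and the 0 whose sire and dam difference varied with strain, stayed at 0 under every alternative run. The 112 windows near 50% became 73 with at least 10 CpGs and 41 with at least 20, and stayed between 77 and 129 otherwise. Called windows numbered 3 between strains, 3 between sires and dams, 0 between sons and daughters and 3 between dams and daughters at a minimum of 20 points, and 35 between strains (12 higher and 23 lower in B6) and 32 between sires and dams (3 higher and 29 lower in sires) with no minimum. With at least 100 reads, where fewer windows were tested, sires and dams differed in 10. The window count for the difference between generations went from 1 to 2 with a pseudocount of 5 or the arcsine scale and to 3 with the quasi-binomial model. Leaving out single animals gave 1 to 4 windows between sons and daughters (1 without B6C3F1 male replicate 2, B6C3F1 female replicate 1, C3B6F1 male replicate 3 or C3B6F1 female replicate 3, each of which took the window chr15:96879501-96880000 to between -9.80 and -9.19 points), 5 to 8 between dams and daughters (5 without B6 female replicate 2 or 3, B6C3F1 female replicate 2 or 3, or C3B6F1 female replicate 2), 1 to 2 for the difference between generations (2 without B6 male replicate 1, B6 female replicate 3, C3 male replicate 2, B6C3F1 female replicate 1 or C3B6F1 male replicate 2), 13 to 24 between sires and dams (24 without C3 male replicate 3) and 13 to 15 between strains. Without any of the 4 animals named for chr15:96879501-96880000, its limma adjusted p between sons and daughters also rose, to between 0.064 and 0.075. With the replicate block the counts were 13, 17, 3 and 8 between strains, sires and dams, sons and daughters, and dams and daughters, and the block changed no call count.

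Of the locus means, Mest passed between strains with a band of 30 to 70% (-3.19 points, adjusted exact p = 0.035). Slc38a4 lost its calls in runs formed among the windows chosen for each test. These gave -3.84 points between sires and dams over 11 windows and 0.53 between dams and daughters over 5, without the intronic run. For dams and daughters Slc38a4 also lost the call as a mean over CpGs (3.90 points, adjusted exact p = 0.12). Between sires and dams Igf2r passed without B6 male replicate 2 (-5.47 points, range -5.47 to -3.31, adjusted exact p = 0.0173) and Plagl1 without C3 female replicate 2 (3.92 points, range 2.37 to 3.92, adjusted exact p = 0.0087). Differences that did not pass changed sign as follows. Between the crosses, Slc38a4 gave 0.50 points in runs alone and Impact -0.029 with a band of 30 to 70%. Between strains, Grb10 gave 0.68 and Slc38a4 0.63 with that band, and Slc38a4 0.28 as a mean over CpGs. Between sires and dams, Peg10/Sgce gave -0.068 with a band of 40 to 60%, -1.34 as a mean over CpGs and -0.24 in runs alone. Between sons and daughters, Slc38a4 gave 0.37 with a band of 40 to 60% and 1.66 in runs alone, and Igf2r 0.063 with a band of 40 to 60%. Between dams and daughters, Igf2r gave -0.76 with a band of 30 to 70% and Impact -0.18 as a mean over CpGs. Leaving out single animals spanned 0 between the crosses in Gnas (-0.35 to 0.78 points), Igf2r (-0.072 to 2.21) and Impact (-2.14 to 1.08), between strains in Slc38a4 (-1.15 to 0.76), between sires and dams in Peg10/Sgce (-0.097 to 1.42) and Mest (-0.18 to 1.21), between sons and daughters in Impact (-1.45 to 2.07), and between dams and daughters in Impact (-1.14 to 1.57). The Pearson correlation of the reciprocal difference with depth was 0.024 over all windows of the loci, 0.029 over those near 50% in all 4 groups and -0.095 over those in runs. The cause of these changes was not tested. Depth of 8.87 to 36.8 reads per CpG in the runs limits single CpGs more than runs.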
